A study of Mus musculus with 8 samples.

Results

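The genes described here are 43 type I interferon response genes of the mouse, taken by name from a written list that covers RNA and nucleic acid sensors, the interferon receptor, transcription factors, antiviral effectors, the ISG15 system and 1 chemokine. The deposited table holds 22013 genes, and 42 of the 43 have a row in it. The sensor Ddx58 was found by its Ensembl identifier, since the table lists it under the newer symbol Rigi, and Mx2 has no row and was not analysed here. RNA was sequenced from RAW264.7, a mouse macrophage-like cell line, after rFSTL1 (recombinant follistatin-like 1, a secreted glycoprotein) at 100 ng/mL for 24 h or after PBS, with 4 libraries per group. Cells had been plated at 70 to 80% confluence. The labels give no duration for PBS and do not say whether the libraries of a group came from separate cultures, so p-values measure the spread between these libraries, which may be technical. RAW264.7 is a single transformed line, and a pure culture of it holds no lymphocytes, plasmacytoid dendritic cells or liver cells.

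Type I interferons are secreted cytokines that bind a receptor made of the subunits IFNAR1 and IFNAR2. The receptor-bound kinases JAK1 and TYK2 phosphorylate STAT2, which acts with IRF9. The resulting complex binds interferon-stimulated response elements in promoters and switches on the interferon-stimulated genes. Macrophages keep a low, constant level of many of these genes through small amounts of interferon, and they raise them strongly after contact with viral nucleic acids or bacterial products.

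Libraries held 15183112 to 20234472 counts in the PBS group and 15062026 to 19260966 in the rFSTL1 group. Values are given as CPM, a gene's count relative to the library total after scaling by edgeR's TMM factors. Macrophage markers summed to 5090 to 5360 CPM in the 8 libraries, while T cell, B cell, endothelial and fibroblast markers summed to at most 1.09 CPM in any of them. Fstl1 itself, the gene of the added protein, had 0 to 4 counts under PBS and 0 under rFSTL1, so the added protein cannot be followed through its mRNA.

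Between the groups, no interferon response gene passed edgeR's test, but the single rFSTL1 libraries differed from each other far more than the PBS libraries did. In rFSTL1 replicate 2 the interferon response genes stood above the PBS mean by a median of 0.37 on the log2(CPM + 1) scale, while in rFSTL1 replicates 1, 3 and 4 the median was -0.02, 0.09 and -0.08. The 4 PBS libraries lay at 0.04, -0.04, 0.00 and 0.04. The range between the highest and the lowest library was therefore 0.45 under rFSTL1 and 0.08 under PBS. Over all 10748 genes tested it was 0.02 and 0.00, but the TMM scaling itself holds that median near 0. Those 2 ranges therefore do not show how far the median of a short list can move between libraries. Because these are bulk RNA samples, more cells with an interferon response and more RNA per cell cannot be told apart.

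**Figure D1:**
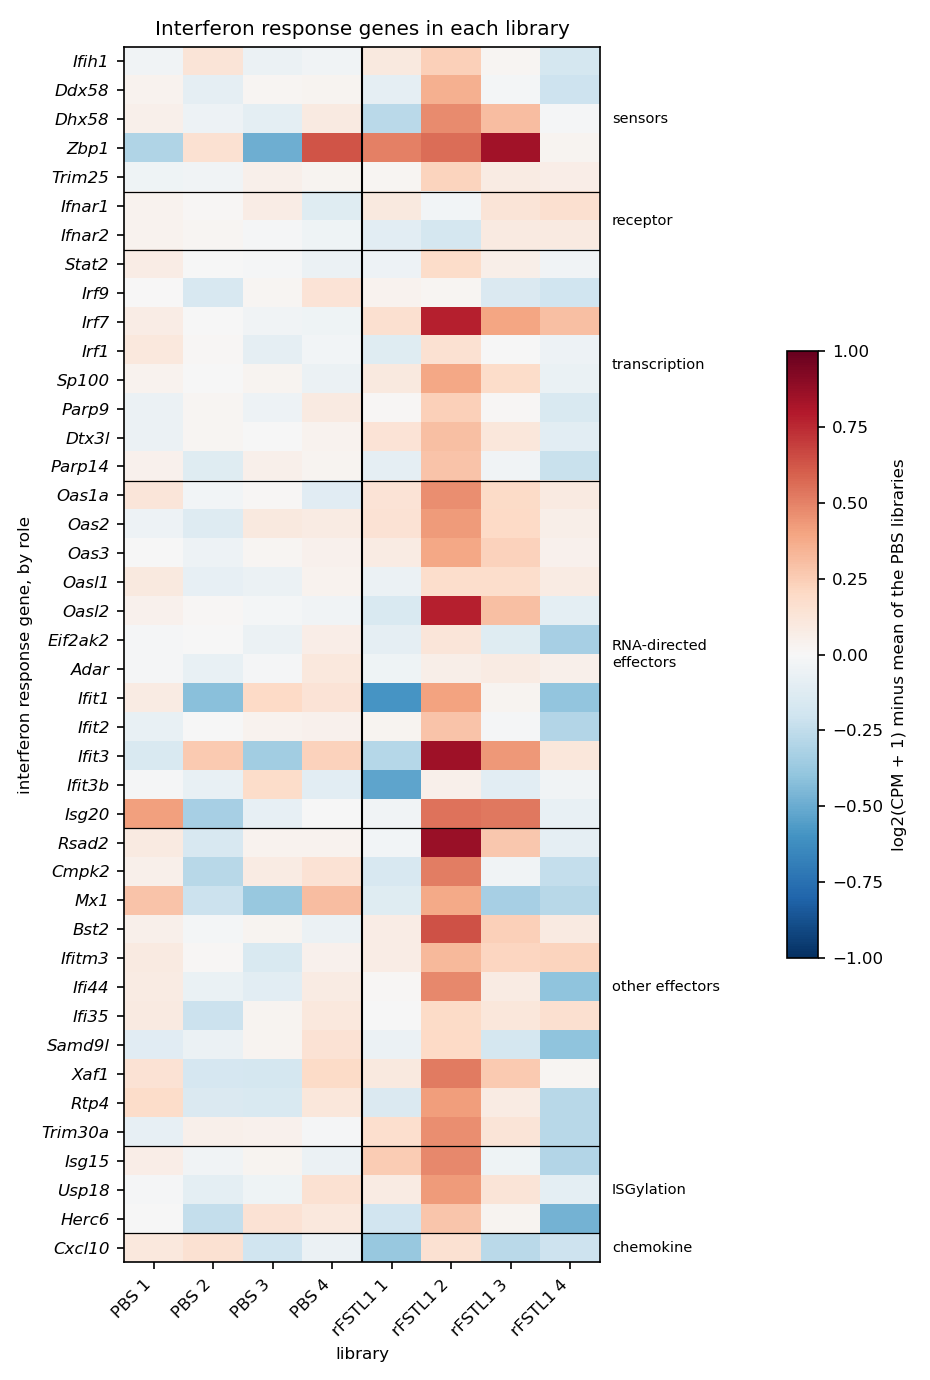
Colour gives log2(CPM + 1) of each of the 42 measured interferon response genes (rows, grouped by role) minus its mean over the 4 PBS libraries, for each library (columns), on a scale from -1 to 1. The column of rFSTL1 replicate 2 is red for nearly every gene apart from the 2 receptor genes, and rFSTL1 replicate 4 has the lowest value of its group for 24 of the 42.

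All 42 measured genes passed edgeR's expression filter and were tested. With edgeR's quasi-likelihood test and Benjamini-Hochberg adjustment over all genes tested, 0 of 42 had an adjusted p under 0.05, against 0.326% of all genes higher and 0.0186% lower under rFSTL1. The smallest adjusted p was 0.0789, for Irf7. At an unadjusted p under 0.05, 7 were higher and 0 lower, against 8.29% and 7.56% of all genes. DESeq2 called 2 of them (Ifitm3 and Irf7) and limma voom with sample quality weights called 3 (Ifitm3, Irf7 and Oas3), all higher under rFSTL1. Over all genes with an adjusted p, DESeq2 called 1.46% higher and 0.657% lower, and limma voom 2.27% higher and 1.95% lower. The log2 fold changes of the 42 ran from -0.31 to 0.67 with a median of 0.10, of which 31 were positive and 11 negative, and the median over all genes was 0.01. Without rFSTL1 replicate 2 the median was 0.02, with 23 positive and 19 negative.

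**Figure D2:**
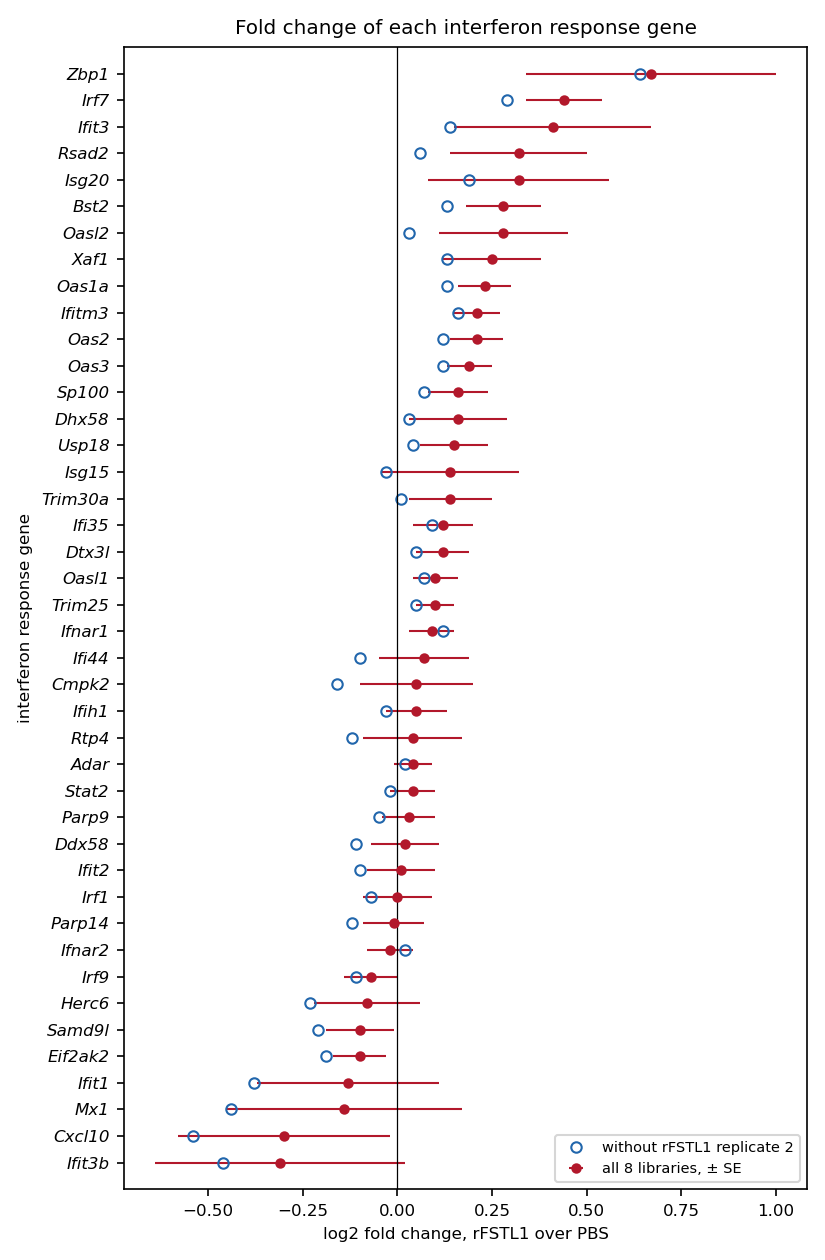
Filled points give the log2 fold change of rFSTL1 over PBS for each of the 42 interferon response genes with its standard error (all 8 libraries, edgeR), and open points give the value without rFSTL1 replicate 2. For most genes the open point lies to the left of the filled one, as for Rsad2 (0.32 and 0.06) and Oasl2 (0.28 and 0.03), while those of Zbp1 are at 0.67 and 0.64.

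Irf7, Oas3 and Bst2 were the 3 interferon response genes whose 4 rFSTL1 libraries all lay above the 4 PBS libraries, and no gene of the list showed the opposite. Over all genes tested the shares were 4.63% and 3.53%. Without rFSTL1 replicate 2, Irf7, Bst2 and Ifnar1 were higher without overlap and Eif2ak2 and Cxcl10 lower without overlap, that is 3 and 2 of 42, against 8.2% and 7.04% of all genes. The share of all genes without overlap was also higher in this and the 2 following cases than with all 8 libraries. Without rFSTL1 replicate 4, 8 of 42 were higher and 0 lower without overlap (5.89% and 4.68% of all genes), and without PBS replicate 1, 5 were higher and 0 lower (6.21% and 7.81%). Irf7 (ENSMUSG00000025498) encodes the transcription factor that amplifies interferon production. Its level was 31.2, 29.5, 28.8 and 28.6 CPM in PBS replicates 1 to 4, and 33.0, 51.3, 39.0 and 36.5 CPM in rFSTL1 replicates 1 to 4. The PBS libraries lay close together, and rFSTL1 replicate 2 was the highest of the 8 by a wide margin. Irf7 had a log2 fold change of 0.44 with a standard error of 0.10. Its exact two-sided permutation p was 0.0286 over the 70 assignments of the libraries, the smallest they can give. Every gene without overlap between the groups has this p, so it adds nothing to the separation of Irf7. Without rFSTL1 replicate 2 the log2 fold change of Irf7 was 0.29 with an adjusted p of 0.0520 (edgeR). Without rFSTL1 replicate 1 it was 0.51 with an adjusted p of 0.0433. The edgeR adjusted p of Irf7 was 0.115, 0.246, 0.207 and 0.296 without PBS replicates 1 to 4 in turn. It was 0.231 and 0.0553 without rFSTL1 replicates 3 and 4.

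Oas3 (ENSMUSG00000032661) encodes an oligoadenylate synthetase that activates RNase L on double-stranded RNA. Its PBS libraries held 124, 120, 126 and 128 CPM, and its rFSTL1 libraries 132, 163, 146 and 128 CPM. The separation of the groups was narrow, since PBS replicate 4 and rFSTL1 replicate 4 both round to 128. Bst2 (ENSMUSG00000046718) encodes tetherin, which holds budding virions at the cell surface, and was at 53.6, 51.1, 52.7 and 49.5 CPM under PBS and at 54.5, 80.9, 61.1 and 55.1 CPM under rFSTL1. Here rFSTL1 replicate 2 stood far above and rFSTL1 replicate 1 lay just above the highest PBS library. The log2 fold changes were 0.19 for Oas3 and 0.28 for Bst2 (standard errors 0.06 and 0.10), with edgeR adjusted p of 0.181 and 0.207. Without rFSTL1 replicate 2 they were 0.12 and 0.13.

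The single rFSTL1 libraries were then compared gene by gene. rFSTL1 replicate 2 was the highest of the 4 rFSTL1 libraries for 36 of 42 interferon response genes, against 28.0% of all genes tested, and the highest of all 8 libraries for 34 of 42, against 14.5%. At the other end, rFSTL1 replicate 4 was the lowest rFSTL1 library for 24 of 42 (31.0% of all genes) and rFSTL1 replicate 1 for 15. The ratio of the highest to the lowest library was wider under rFSTL1 than under PBS for 36 of 42, against 64.9% of all genes. The median ratio was 1.47 under rFSTL1 and 1.15 under PBS, and over all genes it was 1.18 and 1.13. In 35 of 42 genes rFSTL1 replicate 2 exceeded every PBS library, against 24.3% of all genes. This was so for 10, 21 and 7 interferon response genes in rFSTL1 replicates 1, 3 and 4, against 21.7%, 29.4% and 34.3% of all genes. Each of these counts describes single libraries, which have no replicate of their own, and no test was made over the list.

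**Figure D3:**
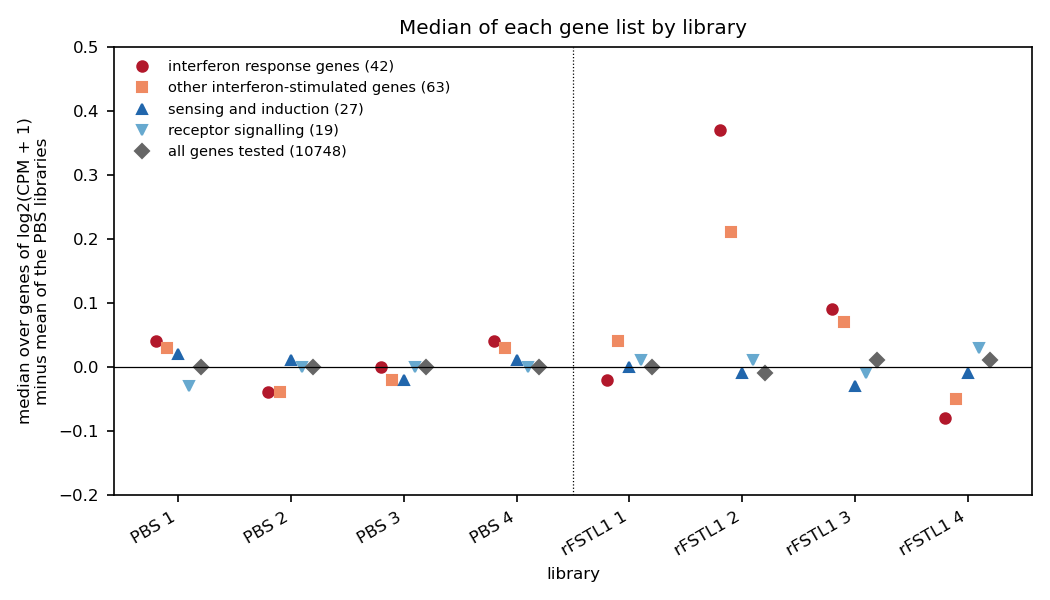
Points give, for each of the 8 libraries, the median over each gene list (numbers of genes in brackets) of log2(CPM + 1) minus the gene's mean over the 4 PBS libraries. The interferon response genes (0.37) and the other interferon-stimulated genes (0.21) stand apart in rFSTL1 replicate 2, while the lists for sensing and receptor signalling stay near 0 in every library.

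The letters of the interferon-stimulated response element were searched in the promoters of the interferon response genes. The genes were listed by name for this response, so the share with the letters says nothing about the values of these libraries. The search took GAAANNGAAA on both strands, with overlapping matches kept, in the RefSeq promoter windows of build GRCm38.p6, from 250 bases before to 50 bases after each start. A window was found for 34 of the 43 genes, and 15 of them (44.1%) hold the letters, against 3.99% of the 27025 genes of that table. Among the further interferon-stimulated genes of the pathway list the share was 53.5%, in 38 of 71 with a window. The gamma-activated letters TTCNNNGAA were held by 11 of 34 (32.4%), against 14.1% of those further genes and 9.55% of all genes. In 11 of the genes the response element letters lie wholly before the start, and 8 of those are shown because their groups did not overlap or their rFSTL1 libraries spanned a ratio of at least 1.91. Capitals mark the matched letters, and the lines read 5′ to 3′ along the gene's own strand.
Isg15: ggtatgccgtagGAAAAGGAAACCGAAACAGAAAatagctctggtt
Oas3: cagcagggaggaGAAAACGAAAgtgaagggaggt
Bst2: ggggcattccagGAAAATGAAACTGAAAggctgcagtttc
Rsad2: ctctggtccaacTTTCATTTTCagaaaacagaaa
Cxcl10: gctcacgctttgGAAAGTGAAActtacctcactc
Ifit1: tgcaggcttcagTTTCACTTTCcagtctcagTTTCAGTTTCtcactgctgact
Ifit3: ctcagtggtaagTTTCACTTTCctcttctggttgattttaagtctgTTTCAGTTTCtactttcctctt
Ifit3b: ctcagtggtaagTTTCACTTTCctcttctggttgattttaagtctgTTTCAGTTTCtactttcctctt

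The Isg15 stretch (chr4:156200863-156200908, minus strand) holds 3 overlapping matches, and that of Bst2 (chr8:71537575-71537614, minus strand) holds 2. Single matches lie before Oas3 (chr5:120777713-120777746, minus strand), Cxcl10 (chr5:92349081-92349114, minus strand) and Rsad2 (chr12:26456551-26456584, minus strand). On chromosome 19 the stretches of Ifit1 (chr19:34640773-34640825), Ifit3 (chr19:34583361-34583428) and Ifit3b (chr19:34607757-34607824), all on the plus strand, hold 2 separate matches each. The printed stretches of Ifit3 and Ifit3b are the same, and over 218 aligned bases before their starts 86.2% of the bases are identical. A match is a string of letters, not a measured binding site. The log2 ratio of rFSTL1 replicate 2 to the mean of the other rFSTL1 libraries had a median of 0.47 in the 15 genes with the letters (0.16 to 0.89) and of 0.32 in the 19 without them (-0.20 to 0.79), so the ranges overlap.

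Among the sensors, Ifih1 (MDA5), Ddx58 (RIG-I) and Dhx58 (LGP2) are helicases that recognise viral RNA in the cytosol, Trim25 is the ubiquitin ligase linked to RIG-I, and Zbp1 senses Z-form nucleic acids. rFSTL1 replicate 2 was the highest rFSTL1 library for 4 of the 5, and the median of the 5 in that library was 0.36 above the PBS mean. Ddx58 was at 79.2, 72.5, 78.3 and 78.8 CPM under PBS and at 72.4, 99.2, 75.9 and 66.7 CPM under rFSTL1. Dhx58 had 19.8 to 22.7 CPM under PBS, and 17.4, 29.9, 26.5 and 21.1 CPM under rFSTL1. Both had their highest value of all 8 libraries in rFSTL1 replicate 2, and both had other rFSTL1 libraries below a PBS library. Zbp1 was scarce, with 1.15, 1.94, 0.888 and 3.09 CPM under PBS and 2.74, 2.89, 3.72 and 1.69 CPM under rFSTL1. It had the largest log2 fold change of the list, 0.67 with a standard error of 0.33 (edgeR adjusted p = 0.331), on counts of 18 to 71 per library, and PBS replicate 4 was higher than 3 of the rFSTL1 libraries. The log2 fold change of Zbp1 was 0.43 without PBS replicate 3 and 1.05 without PBS replicate 4.

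The receptor genes went the other way in rFSTL1 replicate 2. Ifnar1, which encodes the subunit bound to TYK2, was at 61.4, 60.6, 63.2 and 55.0 CPM under PBS and at 64.3, 58.9, 65.7 and 67.1 CPM under rFSTL1. Ifnar2, the high-affinity subunit, was at 63.6, 62.7, 61.4 and 60.1 CPM under PBS and at 57.4, 54.8, 66.1 and 65.9 CPM under rFSTL1. For both, rFSTL1 replicate 2 was the lowest rFSTL1 library, and the groups overlapped. Their log2 fold changes were 0.09 and -0.02, each with a standard error of 0.06. When single libraries were left out, Ifnar1 ran from 0.05 (without PBS replicate 4) to 0.12 (without PBS replicate 3 or rFSTL1 replicate 2).

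The transcription factors were uneven. Stat2 and Irf9 encode interferon-specific transcription factors. Stat2 was at 52.9, 49.9, 49.8 and 48.0 CPM under PBS and at 48.4, 57.0, 52.2 and 48.9 CPM under rFSTL1. Irf9 was at 46.7, 41.5, 47.1 and 51.2 CPM under PBS and at 47.7, 47.1, 42.0 and 40.4 CPM under rFSTL1. Stat2 was highest in rFSTL1 replicate 2 by a small margin, and Irf9 was the only gene among the 8 of this group whose highest rFSTL1 library was another one, replicate 1. Irf1, which is induced by interferon gamma more strongly than by type I interferon, was at 14.0, 13.1, 12.1 and 12.7 CPM under PBS and at 11.8, 14.5, 12.9 and 12.5 CPM under rFSTL1. The log2 fold changes of Stat2 and Irf9 were 0.04 and -0.07 (standard errors 0.06 and 0.07), and none of the 3 genes separated the groups. When single libraries were left out, Irf9 ran from -0.13 (without PBS replicate 2) to -0.03 (without PBS replicate 4 or rFSTL1 replicate 4). Sp100, a nuclear body protein, was at 52.9 to 56.7 CPM under PBS and at 59.1, 72.5, 62.7 and 52.6 CPM under rFSTL1. Parp9 and Dtx3l encode a complex that modifies histones, and Parp14 is a further ADP-ribosyltransferase of the same family. These 3 were at 88.7, 76.5 and 98.0 CPM in rFSTL1 replicate 2 and at 67.4, 57.7 and 68.7 CPM in rFSTL1 replicate 4, which were the highest and the lowest of the 8 libraries for each.

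The effectors that act on RNA formed the largest group, with 12 genes and a median of 0.40 above the PBS mean in rFSTL1 replicate 2. rFSTL1 replicate 2 was the highest rFSTL1 library for 10 of them. Besides Oas3, the synthetases Oas1a and Oas2 were at 127 and 137 CPM in rFSTL1 replicate 2, with 97.6 to 105 and 106 to 117 CPM in the other rFSTL1 libraries and 84.8 to 100 and 93.2 to 109 CPM under PBS. Oas1a and Oas2 had log2 fold changes of 0.23 and 0.21 (standard errors 0.07 and 0.07, edgeR adjusted p = 0.174 and 0.201), and single libraries overlapped. Without rFSTL1 replicate 2 the log2 fold changes of Oas1a and Oas2 were 0.13 and 0.12. Oasl2 (ENSMUSG00000029561), a synthetase-like protein, was at 11.2, 11.0, 10.7 and 10.6 CPM under PBS and at 9.69, 19.3, 13.6 and 10.1 CPM under rFSTL1. The PBS values of Oasl2 were nearly equal, and its rFSTL1 values spanned a ratio of 2.0 (95% counting interval 1.63 to 2.45). Counting intervals here and below cover counting error only. They leave out the other differences between libraries and the choice of the highest and the lowest library. Oasl1, a translational brake on Irf7, showed less of this, with 57.9 to 65.7 CPM under PBS and 58.8 to 69.4 CPM under rFSTL1.

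Eif2ak2 encodes PKR, the kinase that stops translation on double-stranded RNA. It was at 160, 161, 155 and 169 CPM under PBS and at 151, 175, 148 and 128 CPM under rFSTL1, so that 3 rFSTL1 libraries lay below the PBS libraries and replicate 2 above them. Its log2 fold change was -0.10 with all libraries and -0.19 without rFSTL1 replicate 2 (edgeR adjusted p = 0.486 and 0.0853). Without rFSTL1 replicate 4 the log2 fold change of Eif2ak2 was -0.03. Adar, the RNA editing enzyme that keeps self RNA from being sensed, was among the flattest, with 213 to 241 CPM under PBS and 218 to 237 CPM under rFSTL1.

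The Ifit genes, whose proteins bind foreign 5′ ends of RNA and block its translation, were low apart from Ifit2. Ifit1 was at 4.98, 3.21, 5.48 and 5.19 CPM under PBS and at 2.74, 6.47, 4.76 and 3.28 CPM under rFSTL1. Ifit3 was at 2.73, 3.99, 2.27 and 3.88 CPM under PBS and at 2.41, 6.47, 4.61 and 3.49 CPM under rFSTL1. Both were highest of the 8 libraries in rFSTL1 replicate 2, and the groups overlapped. Ifit3b, the near copy of Ifit3, was at 0.911, 0.830, 1.18 and 0.788 CPM under PBS and held 0.334, 0.985, 0.785 and 0.873 CPM under rFSTL1, on 5 to 24 counts per library. Reads of Ifit3 and Ifit3b may have been split between the copies in the authors' counting, so their values are uncertain one by one. Ifit2 was at 30.2 to 32.9 CPM under PBS and at 32.4, 39.0, 31.6 and 25.8 CPM under rFSTL1. Isg20, an RNA exonuclease, was at 4.37, 2.21, 2.81 and 3.02 CPM under PBS and at 2.94, 4.86, 4.81 and 2.82 CPM under rFSTL1. The log2 fold changes were -0.13 for Ifit1, 0.41 for Ifit3, -0.31 for Ifit3b and 0.32 for Isg20, with standard errors of 0.24, 0.26, 0.33 and 0.24. When single libraries were left out, Ifit3 went down to 0.14 (without rFSTL1 replicate 2) and Ifit3b went up to -0.10 (without rFSTL1 replicate 1). Isg20 ran from 0.19 (without PBS replicate 2, rFSTL1 replicate 2 or rFSTL1 replicate 3) to 0.52 (without PBS replicate 1).

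Among the other effectors, rFSTL1 replicate 2 was the highest rFSTL1 library for all 11 measured. Their median lay 0.46 above the PBS mean in that library, and stood at -0.23 against it in rFSTL1 replicate 4. Rsad2 (ENSMUSG00000020641) encodes viperin, which makes a chain-terminating nucleotide. It was at 10.8, 8.91, 10.4 and 10.4 CPM under PBS and at 9.89, 19.2, 12.4 and 9.44 CPM under rFSTL1. Its rFSTL1 replicate 2 value was 2.03 times that of replicate 4 (95% interval 1.68 to 2.45, counting error only). The values of rFSTL1 replicates 1 and 4 lay within the PBS range. Cmpk2, the mitochondrial nucleotide kinase encoded beside Rsad2, followed with 13.8 to 18.8 CPM under PBS and 15, 24.5, 16.5 and 14.2 CPM under rFSTL1. Mx1, a dynamin-like antiviral GTPase, was at 2.37, 1.38, 1.13 and 2.43 CPM under PBS and at 1.54, 2.59, 1.20 and 1.28 CPM under rFSTL1.

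Ifitm3 (ENSMUSG00000025492), which blocks virus entry from endosomes, was the most abundant of the 42 per kilobase of transcript, at 413 CPM per kb under PBS. Per library it was at 298, 282, 252 and 288 CPM under PBS and at 294, 351, 324 and 326 CPM under rFSTL1. Only rFSTL1 replicate 1 lay within the PBS range. The log2 fold change of Ifitm3 was 0.21 with a standard error of 0.06, and its adjusted p was 0.133 by edgeR, 0.0479 by DESeq2 and 0.0338 by limma voom. Without rFSTL1 replicate 2 it was 0.16. At the low end of the same per kilobase scale were Ifit3b, Zbp1, Mx1 and Cxcl10, with 0.464, 0.531, 0.540 and 0.606 CPM per kb under PBS.

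Samd9l, a translation-inhibiting tumour suppressor, was at 144, 150, 159 and 173 CPM under PBS and at 150, 179, 138 and 118 CPM under rFSTL1. Ifi44, a GTP-binding protein, was at 107 to 122 CPM under PBS and at 116, 161, 122 and 87.0 CPM under rFSTL1. In both genes rFSTL1 replicates 2 and 4 were the highest and the lowest of the 8 libraries. Rtp4, Trim30a and Xaf1 were at 46.5, 57.1 and 15.3 CPM in rFSTL1 replicate 2, above every PBS library, against PBS ranges of 30.9 to 39.4, 38.8 to 42.7 and 9.08 to 12.0 CPM. Ifi35 did not spread more under rFSTL1, with 23.5 to 27.1 CPM against 20.1 to 25.4 CPM under PBS.

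Isg15 encodes the ubiquitin-like modifier of the interferon response, Herc6 the ligase that attaches it and Usp18 the protease that removes it and also dampens IFNAR2 signalling. Isg15 was at 4.74, 4.37, 4.59 and 4.27 CPM under PBS and at 5.55, 6.65, 4.34 and 3.49 CPM under rFSTL1. The highest PBS value of Isg15 was 1.11 times the lowest. The highest rFSTL1 value was 1.91 times the lowest (95% interval 1.39 to 2.62, counting error only). Usp18 was at 55.4 to 66.0 CPM under PBS and at 62.9, 80.0, 65.0 and 55.4 CPM under rFSTL1, and Herc6 at 15.1 to 20 and at 15.6, 22.0, 18.4 and 12.7 CPM. All 3 were highest in rFSTL1 replicate 2 and lowest of the rFSTL1 libraries in replicate 4. Cxcl10, the chemokine that draws CXCR3-bearing lymphocytes, was scarce, with 1.52, 1.61, 1.04 and 1.25 CPM under PBS and 0.802, 1.60, 0.942 and 1.03 CPM under rFSTL1. The log2 fold changes were 0.14 for Isg15 and -0.30 for Cxcl10 (standard errors 0.18 and 0.28), and without rFSTL1 replicate 2 they were -0.03 and -0.54.

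**Figure D4:**
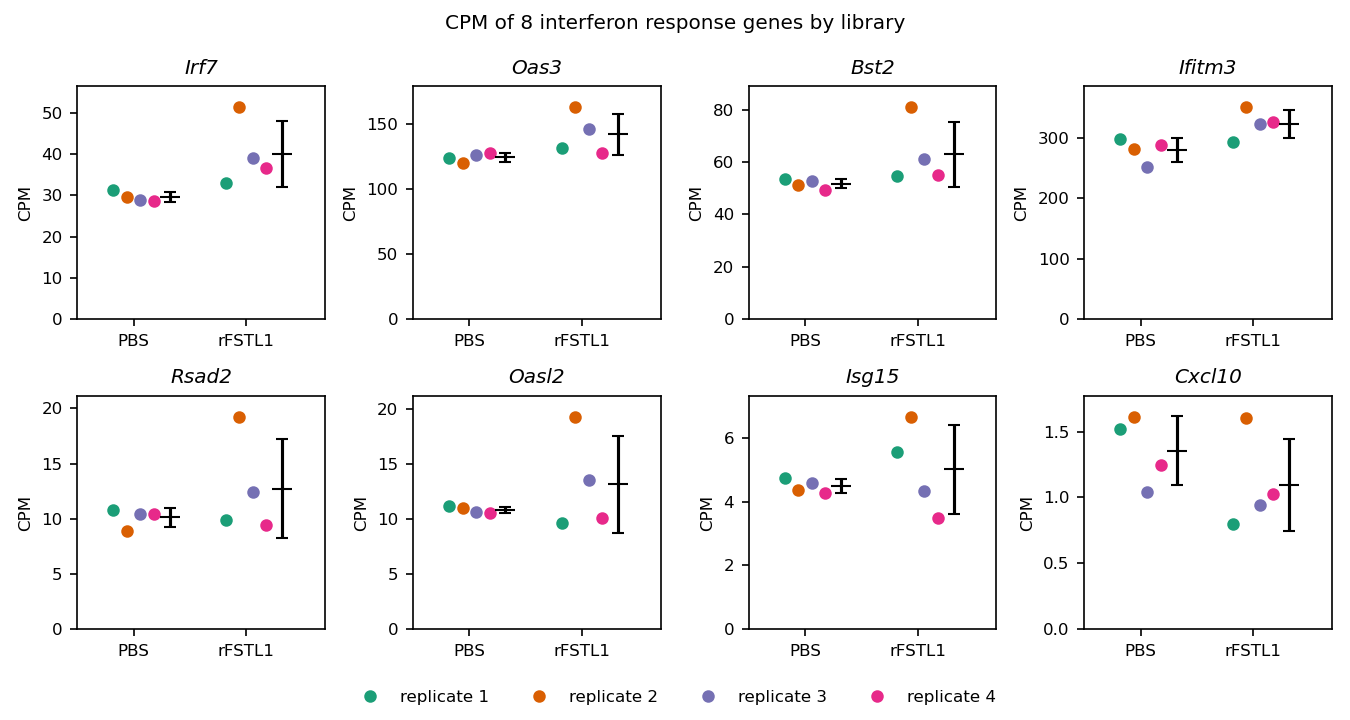
CPM of 8 interferon response genes in each library, with points coloured by replicate number (numbers do not pair libraries across the groups) and black marks for the mean and SD of the 4 libraries. Axes start at 0, and rFSTL1 replicate 2 is the highest rFSTL1 library in every panel, from 1.60 CPM for Cxcl10 to 351 CPM for Ifitm3.

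The rest of the pathway was read from a list of 152 further genes, of which 149 had a row and 109 were tested. By edgeR's quasi-likelihood test 0 of 109 had an adjusted p under 0.05, while 15 (13.8%) were higher and 4 (3.67%) lower at an unadjusted p under 0.05, against the 8.29% and 7.56% of all genes given above. DESeq2 called 3 (Ifi27l2a, Mov10 and Irf8), all higher, against 1.46% of all genes higher and 0.657% lower. Limma voom called 8, of which 6 were higher (those 3 with Ptpn6, Ube2l6 and Ly6e) and 2 lower (Jak2 and Tlr7), against 2.27% and 1.95% of all genes. With edgeR, 2 were called without rFSTL1 replicate 1 (Ifi27l2a and Mov10, both higher) and 1 without rFSTL1 replicate 2 (Jak2, lower). Over all genes edgeR called 99 without rFSTL1 replicate 1 (85 higher and 14 lower). It called 90 without rFSTL1 replicate 2 (58 higher and 32 lower), against 37 with every library. The list holds 21 interferon genes, and none of them was tested. Ifnb1 had 1 count in PBS replicate 1, Ifnk had 1 count in PBS replicate 3, and the other 19 had 0 in all 8 libraries. A count of 0 allows up to 3 counts, or 0.148 to 0.199 CPM per library, by counting error only, so interferon transcripts were not detectable at this depth in rFSTL1 replicate 2 or in any other rFSTL1 library.

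Of 63 further interferon-stimulated genes tested, rFSTL1 replicate 2 was the highest rFSTL1 library for 42, and their median in the 4 rFSTL1 libraries was 0.04, 0.21, 0.07 and -0.05. For 27 genes of sensing and induction the medians were 0.00, -0.01, -0.03 and -0.01, and for 19 genes of receptor signalling 0.01, 0.01, -0.01 and 0.03. The kinases Jak1 and Tyk2 had log2 fold changes of 0.01 and 0.08, and Irf3, which starts interferon transcription, of 0.14. Ifi27l2a, a small interferon-inducible protein, had 39.4, 39.3, 37.2 and 31.3 CPM under PBS and 41.8, 65.3, 49.8 and 47.2 CPM under rFSTL1, with no overlap. Mov10, an RNA helicase, had 56.0 to 64.4 and 66.2 to 78.9 CPM, and Irf8, a lineage factor of macrophages, 48.6 to 57.3 and 59.1 to 66.4 CPM. The log2 fold changes of Ifi27l2a, Mov10 and Irf8 were 0.47, 0.26 and 0.23 (edgeR adjusted p = 0.0758, 0.0758 and 0.0951). The same genes had adjusted p of 0.00644, 0.0167 and 0.0273 by DESeq2 and of 0.0169, 0.0169 and 0.0181 by limma voom. Ptpn6, Ifitm2, Ube2l6 and Shisa5 were also higher without overlap, by 0.13 to 0.31, and Tlr7, Ptpn11, Cd274 and Isg20l2 were lower without overlap, by -0.05 to -0.25, all with an edgeR adjusted p of at least 0.137. Of these 8, limma voom called Ptpn6, Ube2l6 and Tlr7 (adjusted p = 0.046, 0.025 and 0.0392), and the DESeq2 adjusted p was at least 0.0597 for each of the 8. In all, 7 of the 109 (6.42%) were higher and 4 (3.67%) lower without overlap, against 4.63% and 3.53% of all genes, so the lower share was close to the background.

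Other values moved with rFSTL1 replicate 2. Ranked by the ratio of this library to the mean of the other 7, the top 100 of 8522 genes with at least 10 CPM on average held 11 of 34 interferon response genes (32.4% of them, and 11.0% of the list), where all genes hold 1.17%. Those 11 were Rsad2, Oasl2, Irf7, Cmpk2, Bst2, Ifi44, Xaf1, Dhx58, Rtp4, Trim30a and Usp18. Of the further interferon-stimulated genes with at least 10 CPM on average, only 3 of 44 (6.82%) were in the top 100. The same top 100 held 12 ribosomal protein genes and 4 mitochondrially encoded genes, and its median transcript length was 1.22 kb, against 3.56 kb for all genes and 3.12 kb for its 11 interferon response genes. A dependence on the length and GC content of transcripts was also fitted and removed. The median of the interferon response genes was then 0.33 above the PBS mean in rFSTL1 replicate 2. The range of this median among the rFSTL1 libraries was 0.43. What part length or GC content had in the values of these genes was not tested. The mitochondrial share of counts was 5.92 to 6.51% under PBS and 6.19%, 6.50%, 5.41% and 4.87% in rFSTL1 replicates 1 to 4, so that rFSTL1 replicates 3 and 4 lay below every PBS library and replicate 2 within the PBS range.

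Liver and epithelial markers were also found in that library alone at more than 1 count. Over 6 such genes, rFSTL1 replicate 2 had 13 counts of Alb, 4 of Krt18, 2 of Apoa1, 2 of Ttr, 1 of Krt8 and 0 of Epcam, 1.35 CPM in sum, and the other libraries had 0 or 1 count, all of Alb, or at most 0.0657 CPM. The plasmacytoid dendritic markers, whose list includes Bst2, summed to 234 CPM in rFSTL1 replicate 2 and to 187 to 202 CPM in the other libraries. Of these, Tcf4 was at 153 CPM in rFSTL1 replicate 2 and at 131 to 143 CPM elsewhere, Siglech was at 7 to 16 counts in every library and Ccr9, Flt3 and Clec9a were at 0 to 2. Pairs of PBS libraries gave a chi-square divided by its degrees of freedom of 3.05 to 4.23, and pairs of rFSTL1 libraries one of 4.52 to 19.1, the highest for replicates 2 and 4. Apart from the fitted length and GC trend, no step was taken to separate these features from the values of the interferon response genes. The part of any of them in those values, length and GC content included, was not tested.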

How the data were processed

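The authors deposited expected counts (estimated read counts, without normalization) of 22013 genes in 8 libraries, of whose nonzero values 13% are not whole. The submitters' processing notes name Bowtie2 2.2.8, HISAT2, StringTie 1.3.1 and DESeq2, and the genome build, annotation and strand setting are not given in the sources used here. Counts were rounded. Genes kept by filterByExpr (minimum count 10) were compared with edgeR 4.0.16 (glmQLFit, glmQLFTest, TMM factors) in R 4.3.3, and Benjamini-Hochberg adjusted p-values under 0.05 were called. The design had assumed whole counts. DESeq2 1.42.0 and limma 3.58.1 voom were alternatives. Exact permutation tests used log2(CPM + 1). Lengths and GC content came from GENCODE M21, and the longest transcript of a gene was used. The tests were first run on simulated counts.

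The 43 genes, the other lists and the rules were chosen with earlier results of these data known. Genes are given by role, with all 8 values for those with the largest changes, the widest rFSTL1 spread or no overlap between groups, and for Stat2, Irf9, Irf7, Irf1, Ifnar1, Ifnar2, Isg15 and Cxcl10. No batch is labelled. No pair of libraries in a group agreed within sampling noise. Replicate numbers do not pair libraries. One gene of the other pathway list is not reported here.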

Additional observations from a re-analysis of the deposited data

Results flagged for a closer look

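Of 118 groups of 4 libraries examined, 4 held a library far from the other 3 by Dixon's ratio, where chance alone would give about 5.9. In PBS replicate 2, Ifih1 was at 36.1 CPM, against 31.5 to 32.2 CPM in the rest of its group. There, Ddx58 was also apart, at 72.5 CPM, against 78.3 to 79.2 CPM, and Parp14 at 73.8 CPM, against 81.8 to 83.0 CPM. Jak1 was at 171 CPM in PBS replicate 1, against 163 to 164 CPM in the others.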

How the results depend on the processing

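The number of interferon response genes called was 0 with upper-quartile factors, library totals alone and the replicate block, 2 with DESeq2, 3 with limma voom, 1 (Irf7) on every gene with at least 1 count, 1 (Irf7) at a threshold of 0.1, and 0 to 1 when each library was left out (Irf7 without rFSTL1 replicate 1). For all genes it was 37, against 197 with DESeq2, 454 with limma voom, 56 with upper-quartile factors, 127 without the filter, 133 at a threshold of 0.1 and 11 to 99 when each library was left out. For the other pathway genes it was 3 with DESeq2, 8 with limma voom, 2 without the filter, 1 (Ifi27l2a) with the replicate block, 3 at a threshold of 0.1 and 0 to 2 when each library was left out. The number of interferon response genes without overlap was 3 to 8 when each library was left out, with 8 without rFSTL1 replicate 4, 5 without PBS replicate 1 (all higher in both) and 5 without rFSTL1 replicate 2 (3 higher and 2 lower), and the share of all genes without overlap was also higher in these 3 cases. The range of their median among the rFSTL1 libraries was 0.17 without rFSTL1 replicate 2 and up to 0.47 otherwise. For each of these, the cause was not tested.

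Replicate numbers gave correlations of deviations of -0.0338, 0.0136, -0.0103 and -0.00929 between same-numbered libraries, so they do not pair them, and the replicate block called 41 genes in all and, among the genes named here, changed the call of Ifi27l2a (log2 fold change 0.46, edgeR adjusted p = 0.0354) and no other. Of 798 refits of 57 genes, 740 kept direction and side of the threshold, 21 passed it newly and 37 turned direction. With limma voom the log2 fold change was -0.01 for Cmpk2, -0.01 for Ddx58, -0.01 for Ifit2, 0.02 for Ifnar2 and 0.00 for Jak1, and with upper-quartile factors 0.01 for Irf1 and 0.00 for Parp14. When each library was left out, the log2 fold change ran from -0.16 to 0.14 for Cmpk2, from -0.11 to 0.10 for Ddx58, from -0.23 to 0.05 for Herc6, from -0.10 to 0.20 for Ifi44, from -0.03 to 0.12 for Ifih1, from -0.38 to 0.02 for Ifit1, from -0.10 to 0.11 for Ifit2, from -0.06 to 0.02 for Ifnar2, from -0.07 to 0.03 for Irf1, from -0.03 to 0.29 for Isg15, from -0.02 to 0.03 for Jak1, from -0.44 to 0.02 for Mx1, from -0.12 to 0.06 for Parp14, from -0.05 to 0.09 for Parp9, from -0.12 to 0.14 for Rtp4 and from -0.02 to 0.07 for Stat2. The removal of the length and GC trend was chosen after seeing the data. Genes of a few CPM, such as Ifit3b and Cxcl10, have too few counts here to show changes of the size seen for Irf7.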
